A study of Mus musculus with 2 samples.

Results

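Type 1 dendritic cells among immune cells sorted from MC38 tumours were defined as barcodes with 300 or more detected genes, under 10% mitochondrial UMIs (unique molecular identifiers, 1 per captured transcript), and at least 1 UMI of Xcr1 or Clec9a. They also needed 3 or more UMIs over Xcr1, Clec9a, Wdfy4, Naaa and Irf8, and 0 UMIs of Cd3d, Cd3e, Cd3g, Siglech and Ccr7. This gave 67 barcodes of 5686 in all and of 5225 that passed the filters on genes and mitochondrial UMIs. Replicate 1 held 57 of them among 2388 kept barcodes, 2.39% (1.81 to 3.08), and replicate 2 held 10 among 2837, 0.352% (0.169 to 0.647). The mean share was 1.37% ± 1.44 (SD, n = 2). Ptprc-negative barcodes, a class named for lacking that leukocyte gene, made up 786 kept barcodes of replicate 1 (32.9%) and 1073 of replicate 2 (37.8%). The shares above are thus of kept barcodes, not of cells known to be immune. MC38 is a mouse colon carcinoma line, and both droplet libraries came from day 21 tumours of 1 group, with no treatment or genotype given in the labels. Nothing in the labels says whether the libraries came from separate animals. The names under which they were deposited differ by a word that the labels do not explain, so that they are replicates of 1 group rests on their titles alone. Xist, transcribed from the inactive X chromosome of females, had 73 UMIs in the members of replicate 1 and 0 in those of replicate 2.

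Type 1 dendritic cells are known for taking up dead cells, including tumour cells, and for presenting the antigens on MHC class I to CD8 T cells, a route called cross-presentation. Their development depends on the transcription factors IRF8 and BATF3. XCR1 is the receptor for the chemokine XCL1, released by NK cells and CD8 T cells. CLEC9A binds actin exposed by dying cells, WDFY4 is needed for cross-presentation of cell-associated antigen, and NAAA is a lysosomal amidase.

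The members carried 201609 UMIs in replicate 1 and 24034 in replicate 2, and the libraries held 5688000 and 5862342 UMIs. Per member of replicate 1 the UMIs ran from 673 through a median of 3123 to 17854. No barcode sequence was shared by the libraries. With 10 members in replicate 2, genes were compared within replicate 1 on summed UMIs, so each cell class is 1 sample there and has no test. An edgeR quasi-likelihood fit over the sums of both libraries, with the library as a block, was added after seeing the data and is given after each main comparison. Each gene has 1 residual degree of freedom there, and edgeR draws its spread toward that of all genes. The p-values thus rest on spread borrowed across genes, and cover no libraries beyond these. The fit also goes below the minimum of 20 members per library that was set for a test. Ranges in brackets are 95% intervals, exact Poisson for counts per 1000000 UMIs (CPM) and Clopper-Pearson for shares. They cover counting error only, not the spread between cells or animals. A fold change is a log2 difference of CPM + 20, and genes are counted as higher or lower from a 2-fold difference, among genes with a mean of at least 50 CPM over both classes.

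Because the rule chose cells by transcripts, the stretch around the start of 3 of their genes is shown, to let the letters be set beside the levels below. The sequences are from RefSeq on GRCm38.p6 (mm10), from 250 bases before to 50 after the annotated start, given 5′ to 3′ on the gene's strand. Xcr1 is the receptor gene of the rule (chr9:123861980-123862279, minus strand). Txndc16 had the largest excess over both comparison classes (chr14:45219376-45219675, minus strand), and Ifi205 is an interferon-induced gene (chr1:174031706-174032005, minus strand). Capitals mark GAGGAAGT, a letter pattern that PU.1 is known to bind, or the repeat GAAA, any 2 bases, GAAA, which interferon regulatory factors are known to bind, on either strand.
Xcr1: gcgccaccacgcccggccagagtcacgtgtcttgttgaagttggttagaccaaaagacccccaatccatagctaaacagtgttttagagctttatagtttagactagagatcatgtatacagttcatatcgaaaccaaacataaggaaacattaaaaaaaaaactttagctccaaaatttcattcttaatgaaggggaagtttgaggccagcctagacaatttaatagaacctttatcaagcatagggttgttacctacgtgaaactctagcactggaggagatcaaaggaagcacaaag
Txndc16: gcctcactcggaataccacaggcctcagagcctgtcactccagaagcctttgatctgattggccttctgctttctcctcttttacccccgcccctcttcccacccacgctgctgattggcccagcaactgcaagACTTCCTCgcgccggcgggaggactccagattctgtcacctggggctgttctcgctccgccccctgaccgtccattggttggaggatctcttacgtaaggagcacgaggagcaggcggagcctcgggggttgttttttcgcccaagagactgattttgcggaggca
Ifi205: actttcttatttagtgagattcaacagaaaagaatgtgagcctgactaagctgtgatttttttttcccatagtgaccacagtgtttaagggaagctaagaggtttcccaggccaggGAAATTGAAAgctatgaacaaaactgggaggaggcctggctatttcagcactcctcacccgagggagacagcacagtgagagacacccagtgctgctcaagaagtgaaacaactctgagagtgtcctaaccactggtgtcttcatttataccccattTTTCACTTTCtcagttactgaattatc
The GAAA repeat stood in this window of 3.44% of 32851 promoters, GAGGAAGT in 3.20% and TGANTCA, a pattern of BATF and JUN factors, in 7.81%. A window was found for 29 of 41 genes looked for, the 5 rule genes and 24 others. None of the 3 patterns was in the windows of the 5 rule genes. Among the 24 others, the GAAA repeat was in Ifi205 (2 places), Gpr141b and Jaml. TGANTCA was in Zbtb46 and Fgl2, and GAGGAAGT in Btla, Txndc16, Cbfa2t3 and Retnla. These 24 are not the gene list that is compared between classes below. Txndc16, Ccl17, Jaml, Cbfa2t3, Gng10, Retnla and Pfkp were taken in by their rank against macrophages in these data. The matches in the 24 were therefore not read against the shares of all promoters. A match of letters is a description of the window and shows no binding.

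The 5 genes of the rule are described without a test, since they chose the cells. In replicate 1, 47 of the 57 members had a UMI of Xcr1 and 24 one of Clec9a. Both genes were seen in 14 members, Xcr1 alone in 33 and Clec9a alone in 10. Irf8, the lineage's transcription factor, had a UMI in 52 members, Naaa in 46 and Wdfy4 in 32. Summed levels were 322 CPM for Xcr1, 124 CPM for Clec9a, 288 CPM for Wdfy4 and 848 CPM for Irf8. The sum over the 5 genes ran from 3 through a median of 7 to 17 UMIs per member. At the threshold, 8 members had exactly 3 rule UMIs, with 20047 CPM of Cst3 and 4045 CPM summed over C1qa, C1qb and C1qc, the chains of complement C1q. Just outside, 11 barcodes with 2 rule UMIs had 10921 CPM of Cst3 and 3932 CPM of the C1q genes. A further 68 barcodes had 3 or more rule UMIs but neither Xcr1 nor Clec9a, 12 were kept out by a Cd3 UMI and 2 by Ccr7.

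The members differed widely in macrophage transcripts. In replicate 1, 25 of the 57 had no UMI of C1qa, C1qb or C1qc and 31 had 2 or fewer. Another 5 had 3 to 6, and the remaining 21 had 10 to 91, a range that holds the median of 19 UMIs in macrophages. The 31 C1q-low members had at most 4 UMIs of Apoe, the apolipoprotein that tumour macrophages express strongly, while 19 of the 21 with 10 or more C1q UMIs also had 10 or more of Apoe. The C1q-low members were shallower, with a median of 1787 UMIs against 4329 in those 21. Scrublet, which marks barcodes that look like mixtures of 2 cells, marked 10 barcodes (0.419%) of replicate 1 and 36 (1.27%) of replicate 2, and none of the 67 members. At so low a rate the caller is not a working check of doublets in replicate 1. In replicate 2, 4 of 10 members had 2 or fewer C1q UMIs and 6 had 23 to 80. Below, results are given for all members of replicate 1 and for its C1q-low members.

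**Figure D1:**
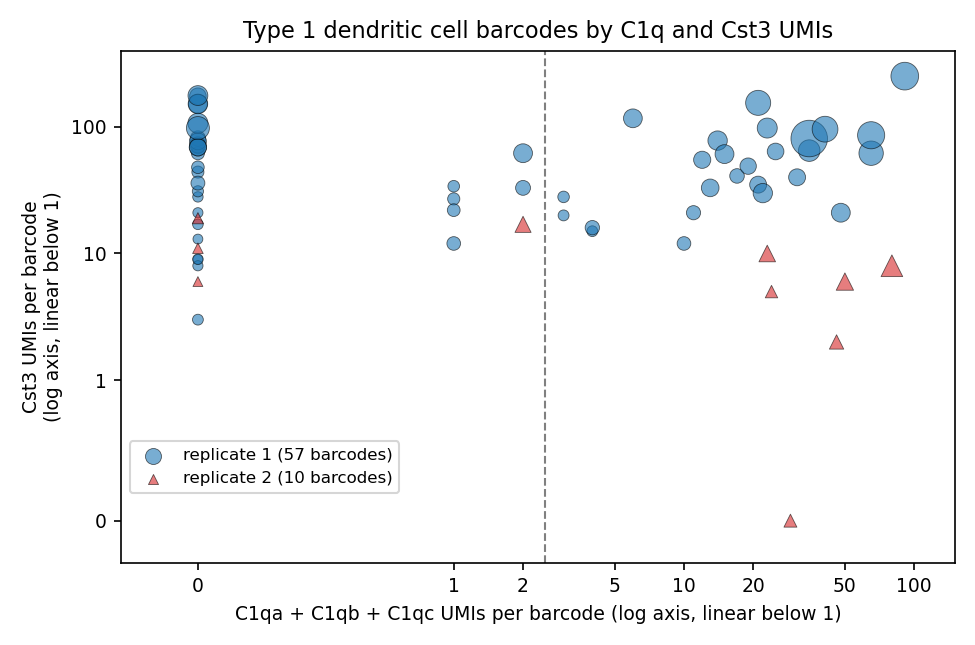
Each point is 1 type 1 dendritic cell barcode, with the summed UMIs of C1qa, C1qb and C1qc on the horizontal axis and of Cst3 on the vertical axis (both log axes, linear below 1). Point area grows with the barcode's total UMIs, circles are the 57 members of replicate 1, triangles the 10 of replicate 2, and the dashed line separates 2 or fewer C1q UMIs from more; 31 circles and 4 triangles lie to its left.

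The whole list of 15 macrophage genes gave 951 CPM (743 to 1200) in the 31 C1q-low members, 19451 CPM in the 26 others and 39889 CPM in the C1q macrophages, defined by 10 or more C1q UMIs and a UMI of a further macrophage gene, Csf1r, Apoe and Trem2 among them (623 barcodes). Per barcode, the list ran from 0 through 695 to 5333 CPM in the C1q-low members and from 4427 through 20111 to 42962 CPM in the others. The list holds the 3 C1q genes that made the split, so part of this distance was fixed by it. In the C1q-low members 3 of the 15 genes were at 0. Adgre1, the gene of the macrophage antigen F4/80, was among them, with 9 UMIs in the other members. Csf1r, the receptor for the macrophage growth factor, had 1 UMI in the C1q-low members and 25 in the others. Lyz2, lysozyme, had 25 UMIs (335 CPM) in the C1q-low members and 487 (3835 CPM) in the others. The 5 rule genes together were present on both sides of the split, at 3002 CPM (2622 to 3422) in the C1q-low members and 1732 CPM (1511 to 1977) in the others. Markers of other lineages were sparse in the members: 16 T and NK cell genes summed to 149 CPM, 8 B cell genes to 39.7 CPM, 8 neutrophil genes to 34.7 CPM and 13 tumour and stromal genes to 69.4 CPM. In CD3-positive barcodes the 3 C1q genes summed to 6679 CPM (6399.8 to 6967), against 5150.1 CPM in the C1q-high members. The median was 11.5 C1q UMIs per CD3-positive barcode and 0 per Ptprc-negative barcode. The macrophage gate had first taken barcodes with 10 or more C1q UMIs from the latter. Where the C1q UMIs of these classes came from was not tested, nor was the part of macrophage transcripts in the results below.

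Genes of type 1 dendritic cells that the rule did not use were found on both sides of the split. Of 26 such genes, 24 were in the files and 23 had a UMI in the members. Without Cst3, the 23 remaining genes of the list gave 4449 CPM (3983 to 4954) in the C1q-low members and 2355 CPM (2095 to 2637) in the others. The same sum was 1494 CPM (1289 to 1723) in type 2 dendritic-like cells, chosen by 2 or more UMIs over Mgl2, Napsa and Cd209a, with 2 or fewer C1q UMIs and none of Xcr1 or Clec9a (55 barcodes), and 785 CPM (739.9 to 832) in macrophages. A UMI of at least 1 of them was seen in 56 of the 57 members.

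Cst3, the gene of cystatin C, an inhibitor of cysteine proteases that dendritic cells express strongly, gave 17102 CPM (16536 to 17683) in all members. It reached 24349 CPM in the C1q-low members and 12844 CPM in the others, against 12911 CPM (12292 to 13552) in type 2 dendritic-like cells and 3692 CPM in macrophages. The C1q-low members thus had the highest Cst3 level of these classes, and the C1q-high members were level with type 2 dendritic-like cells. In replicate 2 the 4 C1q-low members had 53 UMIs of Cst3, 9092 CPM (6811 to 11893), and the 6 others 31 UMIs, 1703 CPM (1157 to 2417). Over all 10 its level was 3495 CPM (2788 to 4327), against 5153 CPM (4396 to 6002) in type 2 dendritic-like cells and 2255 CPM in macrophages of that library. The C1q-low members were thus the higher set in both libraries, and in both they were above type 2 dendritic-like cells.

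Batf3 and Id2, transcription regulators of the lineage, also had their highest level in the C1q-low members among the classes set side by side here. Batf3 gave 188 CPM (103 to 315) in the C1q-low members and 110 CPM in the others, against 31.6 CPM (8.62 to 81.0) in type 2 dendritic-like cells and 44.5 CPM in macrophages. Id2, a repressor of E proteins needed for this lineage, was at 911 CPM in the C1q-low members, 569 CPM in type 2 dendritic-like cells and 196 CPM in macrophages. Irf4, the factor of type 2 cells, had 0 UMIs in the 57 members and 4 UMIs in type 2 dendritic-like cells, too few to tell these classes apart. By a floor of 3 counts, not a Clopper-Pearson limit, the 0 allows a share of members with a UMI of up to 5.26%. Zbtb46, a factor of conventional dendritic cells, had 3 UMIs in the members and Nfil3 had 0.

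Surface and lysosomal genes of the list showed where the members stood apart. Ppt1, a lysosomal thioesterase, gave 531 CPM (435 to 641) in the members, 126 CPM (72.3 to 205) in type 2 dendritic-like cells and 159 CPM (139 to 181) in macrophages, and it was at 670.0 and 449 CPM on the C1q-low and C1q-high side. Cadm1, an adhesion molecule that binds CRTAM on activated T cells, was at 154 CPM in the members, 47.4 CPM in type 2 dendritic-like cells and 58.5 CPM in macrophages. Itgae, the gene of CD103, had 14 UMIs in 11 members and 3 UMIs in type 2 dendritic-like cells. Cd24a, a glycoprotein of the dendritic cell surface, was at 469 CPM (327 to 652) in the C1q-low members and 150 CPM (90.1 to 234) in the others, and 142 CPM in type 2 dendritic-like cells. Cd24a thus separated the C1q-low members from type 2 dendritic-like cells, while the C1q-high members had overlapping intervals with them.

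**Figure D2:**
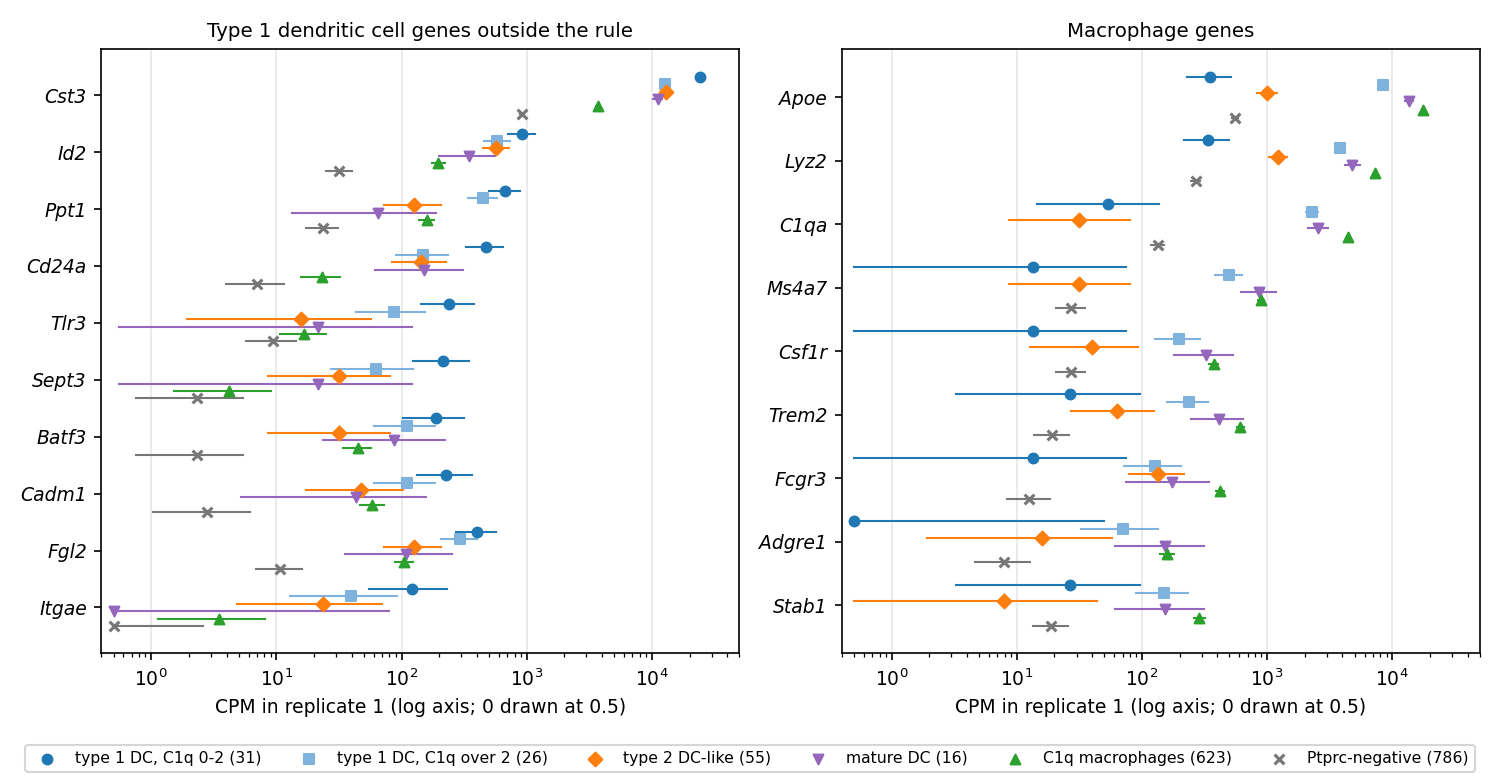
Levels in replicate 1 in CPM (log axis, 0 drawn at 0.5) of 10 type 1 dendritic cell genes outside the rule (left) and 9 macrophage genes (right), with exact Poisson 95% intervals as lines. Marks stand for members with 2 or fewer and over 2 C1q UMIs and 4 other classes, with numbers of barcodes in the key; the C1q-low members have the highest points on the left (Cst3 24349 CPM), and on the right the C1q-high members lie between them and the macrophages for Apoe (348, 8497 and 17717 CPM).

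Against type 2 dendritic-like cells, 156 of 1732 genes were higher in the members (9.01%) and 47 were lower (2.71%), 11.7% either way, and the median gene differed by 0.17. The C1q limit on the type 2 gate was not set on the members, so macrophage genes can differ by construction. With C1q-low members, 179 of 1653 genes were higher (10.8%) and 147 lower (8.89%), 19.7% either way. Of the 24 type 1 genes outside the rule, 12 passed the CPM minimum, 8 of these were higher and 0 lower, with a median of 1.32. In the C1q-low members 16 passed, with 12 higher and 0 lower. A gene that reaches the minimum through 1 class alone must differ, so these counts describe the list and do not support it. The same holds for the counts of the other lists below.

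Txndc16, which encodes a thioredoxin-domain protein of the endoplasmic reticulum, had 65 UMIs in 28 members and 1 UMI in type 2 dendritic-like cells. Its level was 322 CPM (249 to 411) against 7.91 CPM (0.200 to 44.0), a log2 difference of 3.62 (2.37 to 4.19), and in the C1q-low members it was at 576 CPM, a difference of 4.42. Tlr3, the endosomal sensor of double-stranded RNA, was at 144 CPM against 15.8 CPM, with a difference of 2.19 (0.98 to 3.04) in all members and 2.87 in the C1q-low ones. Sept6, a cytoskeletal septin, differed by 2.21 and 2.90, and Znrd1, an RNA polymerase I subunit, by 2.37 and 2.80. Rab32, a small GTPase of lysosome-related organelles, differed by 2.21 and 2.46, and P2ry6, a receptor for UDP, by 2.15 and 1.85. All 6 genes were thus at least 2-fold higher both over all members and over the C1q-low members alone in replicate 1. Among the 10 members of replicate 2, the difference was 2.15 for P2ry6 and 0.81 for Txndc16, but -1.52 for Znrd1, -1.36 for Rab32 and -0.42 for Sept6, each of these 3 on 1 UMI or none in the members. Txndc16 also rested on few UMIs there, where 1 UMI is worth 41.6 CPM, and Tlr3 was not seen in these members.

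Other genes high in the members rested on the C1q-high members or on single barcodes. Apoe was at 5481 CPM (5162 to 5814) in all members, 1004 CPM in type 2 dendritic-like cells and 348 CPM in the C1q-low members, so its difference of 2.43 became -1.47. Ms4a7, a macrophage tetraspan gene, went from 2.71 to -0.63, and the chemokine genes Ccl12 and Ccl8 went from 3.32 and 2.68 to -0.48 each. The lysosomal protease Lgmn went from 3.61 to 0.39, and Stab1, a scavenger receptor, from 2.15 to 0.75. All 28 UMIs of Ctla2a and all 22 of Retnla lay in 1 member each, as did 32 of 83 UMIs of Pf4, 22 of 32 of Ccl8 and 24 of 52 of Ccl12. Of the 15 genes named for the highest difference, 8 also passed 2-fold in the C1q-low members and 4 changed sign.

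The genes lowest in the members passed 2-fold in either set. Ifitm1, an interferon-induced membrane protein, had 13 UMIs in the members (64.5 CPM) and 155 in type 2 dendritic-like cells (1225 CPM), a difference of -3.88 (-4.56 to -3.22). It had 0 UMIs in the C1q-low members, at least 30.5-fold lower. S100a4, a calcium-binding protein of motile cells, was at 818 CPM (698 to 953) in the members and 4910 CPM (4531 to 5311) in type 2 dendritic-like cells, and 64 of its 165 UMIs were in 1 member. In the C1q-low members S100a4 had 7 UMIs, 93.8 CPM. Clec10a, the lectin of type 2 cells, had 2 UMIs against 21. It belongs to a list of 18 type 2 dendritic cell genes, of which 11 outside the gate passed the minimum, with Clec10a and Ltb lower and Csf1r and Cx3cr1 higher in all members, and a median of 0.01. Over the C1q-low members 7 passed, with 6 lower and 0 higher. The whole list summed to 2024 CPM in all members, 482 CPM in the C1q-low members and 2941 CPM in type 2 dendritic-like cells, whose gate uses genes of the list. Slpi, a protease inhibitor, had 0 UMIs against 14, at least 7.44-fold lower, and those 14 were in 3 barcodes. Hmox1, the haem oxygenase, had 7 UMIs against 40 and 0 in the C1q-low members, and the 40 were in 3 type 2 dendritic-like cells. Ifitm3, Ifitm6, Tmem176a, Tmem176b, Ms4a4c, AA467197, Mcemp1, Ltb, Klrd1 and Cript were the other genes named, with differences from -2.55 to -1.72. All 15 passed 2-fold in the C1q-low members as well, in replicate 1. In replicate 2 the sign turned for 4 of them, at 0.27 for Clec10a, 0.81 for Tmem176a, 0.35 for Cript and 1.71 for Tmem176b.

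The edgeR fit over both libraries tested 815 genes against type 2 dendritic-like cells and called 16 higher (1.96%) and 10 lower (1.23%), 3.19% either way, at an adjusted p below 0.05. Of the 24 type 1 genes outside the rule 7 were tested, and Ppt1 and Cadm1 were higher, with log2 fold changes of 1.86 (edgeR adjusted p = 0.0074) and 2.19 (edgeR adjusted p = 0.018). Cst3 was not called, at -0.14 (edgeR adjusted p = 0.98), and neither was Cd24a, at 0.88 (edgeR adjusted p = 0.79). Txndc16 and Tlr3 were among the genes that edgeR filtered out for low counts. Of the 15 genes named as higher 6 were tested and 5 called, the macrophage genes Apoe and Ms4a7 with Lgmn, Ccl8 and Ccl12, none of which was 2-fold higher in the C1q-low members. Of the 15 named as lower 8 were tested and 7 called, S100a4 at -2.77 (edgeR adjusted p = 1.26e-10) and Ifitm1 at -2.69 (edgeR adjusted p = 1.35e-08) the first among them. The named genes were picked by the replicate 1 sums that the fit reuses, so these counts do not support the ranking.

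Against macrophages, 56 of 1889 genes were higher in the members (2.96%) and 108 were lower (5.72%), 8.68% either way. In the C1q-low members 150 of 1794 were higher (8.36%) and 269 lower, 23.4% either way. The type 1 list had 10 higher and 0 lower of 12 that passed the minimum, and 15 higher of 15 in the C1q-low members. A gene that passes through the members alone must be higher, so these counts also describe the list and do not support it. Txndc16 again led, at 322 CPM against 18.1 CPM (11.8 to 26.5) and a difference of 3.17 (2.72 to 3.59). Cd24a was at 268 CPM (201 to 349) against 23.0 CPM, and the septin gene Sept3 at 119 CPM against 4.18 CPM. Cst3 differed by 2.21 (2.14 to 2.27) and Tlr3 by 2.16 (1.59 to 2.69). Dnase1l3, a secreted nuclease that digests DNA on dead-cell particles, was at 99.2 CPM (60.6 to 153) against 7.66 CPM. Jaml, an adhesion molecule, Cbfa2t3, a corepressor, and Ifi205 differed by 2.04, 2.02 and 1.86. The other genes named as higher were Tnni2, Gng10, Pfkp, Sept6, Ccl17 and Retnla. Of the 42 UMIs of Ccl17, 35 were in 1 member, and the difference was 2.13 in all members and 0.74 in the C1q-low ones. For Retnla, with all UMIs in 1 member, it went from 1.79 to -0.90. The other 13 of 15 passed 2-fold in the C1q-low members too. In replicate 2 Tlr3 and Ccl17 had 0 UMIs in the members and differed by -0.26.

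Among the genes lowest against macrophages were calgranulins and an Fc receptor. S100a8, a calgranulin, had 0 UMIs in the members and 207 CPM in macrophages, at least 13.9-fold lower, and S100a9 had 3 UMIs, all in 1 member, against 152 CPM. The macrophage UMIs lay in 33 of 623 barcodes for S100a8 and in 21 for S100a9. The Fc receptor gene Fcgr3 was at 84.3 CPM (49.1 to 135) against 420.4 CPM (388 to 455), and had 1 UMI in the C1q-low members. Fabp5, a fatty acid carrier, was at 54.6 CPM against 264 CPM and had 0 UMIs in the C1q-low members. Tmem176a, Tmem176b, Clec4a2, Adam15, Tmem37 and Fcrls differed by -2.83 to -1.84. All 10 passed 2-fold in the C1q-low members, while in replicate 2 Tmem176a and Tmem176b differed by 0.19 and 0.61. Of the 15 macrophage genes, 8 were not used by a gate. Of these, 6 were lower in all members and 8 in the C1q-low members, with medians of -1.37 and -3.49. Over all genes, 5.72% were lower in all members, and 269 of 1794 genes in the C1q-low members. The macrophage gate asked for 10 or more C1q UMIs and the C1q-low set for 2 or fewer. Lower macrophage genes can thus follow from the split itself, and these counts do not support the list.

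Against macrophages the edgeR fit over both libraries tested 3852 genes and called 34 higher (0.883%) and 22 lower (0.571%), 1.45% either way. Of the 24 type 1 genes outside the rule 13 were tested, and Itgae, Cd24a, Snx22, Sept3 and Ifi205 were higher. Log2 fold changes were 4.53 for Sept3 (edgeR adjusted p = 4.39e-14), 4.03 for Itgae (edgeR adjusted p = 2.78e-07) and 3.17 for Cd24a (edgeR adjusted p = 3.27e-07). Txndc16 was higher by 3.60 (edgeR adjusted p = 6.01e-09), with 65 and 3 UMIs in the members of replicates 1 and 2. Cst3 was not called, at 1.31 (edgeR adjusted p = 0.56), nor were Id2, at 1.36 (edgeR adjusted p = 0.056), and Ppt1, at 1.28 (edgeR adjusted p = 0.070). Of the genes named by rank, 12 of 13 tested were called higher and 10 of 10 lower. They were picked by the replicate 1 sums that the fit reuses, so these counts do not support the ranking. Ccl17, with 35 of 42 UMIs in 1 member, was among those called higher.

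**Figure D3:**
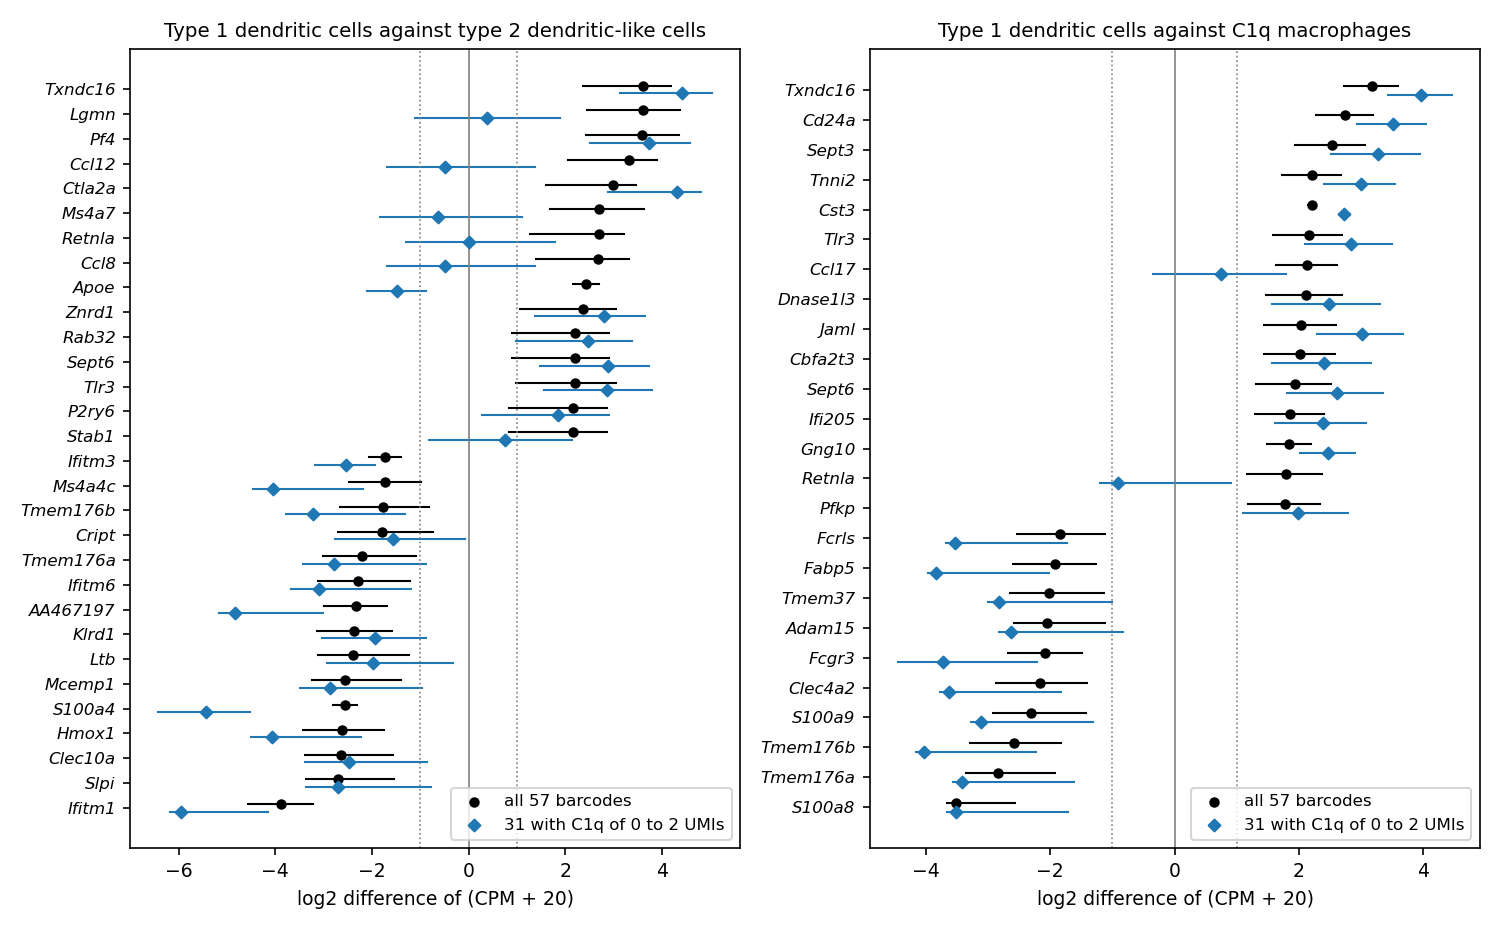
Log2 difference of CPM + 20 for the genes named by rank, against type 2 dendritic-like cells (left) and C1q macrophages (right), in replicate 1. Black circles and blue diamonds stand for all members and for members with 2 or fewer C1q UMIs, lines for 95% intervals from counting error; Txndc16 leads both panels (3.62 and 3.17) and Apoe changes sign (2.43 and -1.47).

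Antigen presentation genes were read against the share of all genes called, which was 11.7% against type 2 dendritic-like cells and 8.68% against macrophages. H2-Ab1, a chain of MHC class II, was at 5496 CPM (5177 to 5829) in the members, 6190.4 CPM (5764 to 6640) in type 2 dendritic-like cells and 2667 CPM in macrophages, and had a UMI in 56 of 57 members. Of 12 class II genes, 10 passed the minimum against type 2 dendritic-like cells, with 0 higher and 1 lower. That gene, H2-DMb2, encodes a chain of the peptide-loading chaperone and was at 114 CPM (72.3 to 171) in the members and 316 CPM (226 to 431) in type 2 dendritic-like cells. Ctss, the protease that trims the invariant chain, was at 764 CPM in the members and 2064 CPM in macrophages, and at 228 CPM (133 to 365) in the C1q-low members. Against macrophages, H2-Ab1 and H2-DMb2 were higher and Ctss lower of 9 that passed. In the edgeR fit over both libraries, H2-DMb2 was the 1 class II gene of 11 called against macrophages, and 0 of 10 were called against type 2 dendritic-like cells.

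Of 25 genes of MHC class I and cross-presentation, 21 passed the minimum against type 2 dendritic-like cells and 20 against macrophages, with 1 higher and 1 lower in each, about the share of all genes called (11.7% and 8.68%). B2m, the class I light chain, was at 2093 CPM (1898 to 2303) in the members, 1890 CPM (1658 to 2145) in type 2 dendritic-like cells and 2848 CPM in macrophages. Rab43, a GTPase used in cross-presentation, was at 114 CPM (72.3 to 171) in the members against 55.3 CPM (22.3 to 114) and 42.5 CPM (32.5 to 54.5), and was called higher against macrophages. In the C1q-low members 20 genes passed against each class. Psme1 and Rab43 were higher and Cybb and Rac2 lower against type 2 dendritic-like cells, where 19.7% of all genes were called. Tap1, Psmb9 and Rab43 were higher and Canx, Cybb, Rac2 and Lgmn lower against macrophages, where 23.4% were called. Psme1, a subunit of the proteasome activator, was at 764 CPM (579 to 990) in the C1q-low members and 356 CPM (260 to 476) in type 2 dendritic-like cells. Psmb9, an immunoproteasome subunit, was at 603 CPM (440 to 807) in the C1q-low members, 316 CPM in type 2 dendritic-like cells and 214 CPM in macrophages. It was not called against type 2 dendritic-like cells. Tap1, the peptide transporter, was at 228 CPM in the C1q-low members and 72.4 CPM in macrophages. Cybb, a chain of the phagosomal oxidase, and Rac2, its regulator, were low in the C1q-low members, at 0 UMIs and 40.2 CPM, against 332 and 191 CPM in macrophages.

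Cytokine and chemokine genes summed to 657 CPM (486 to 868) in the C1q-low members and 3607 CPM (3284 to 3953) in the others. Of 29 genes, 22 had a UMI in the members. Il12b, the subunit of interleukin 12 that type 1 cells are known to make, had 0 UMIs in the members of both libraries, and Il15 had 0 in replicate 1. A count of 0 allows up to 14.9 CPM in the members of replicate 1 by the floor of 3 counts, and up to 18.3 CPM by the exact Poisson limit. Cxcl9, which draws T cells through CXCR3, was at 501 CPM (408 to 609) in the members, 150 CPM in type 2 dendritic-like cells and 502 CPM in macrophages. Within the members Cxcl9 was at 188 CPM (103 to 315) in the C1q-low barcodes, 5 of 31 of which had a UMI, and 685 CPM (549 to 845) in the others. Against type 2 dendritic-like cells 7 of 15 genes of this list that passed were higher in all members, where 9.01% of all genes were. In the C1q-low members 0 of 6 were higher and 3 lower, Cxcl2, Ccl5 and Ccl17, where 10.8% and 8.89% of all genes were. Against macrophages, all 13 genes that passed were lower in the C1q-low members, with a median of -2.39, where 23.4% of all genes were called either way. Xcl1, the ligand of XCR1, had 3 UMIs, all in 1 member, and was at 137 CPM (99.2 to 183) in CD3-positive barcodes.

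Tlr3 was the 1 gene of 19 sensing genes in the files that was higher against both classes. Tlr11, a sensor of profilin in mouse type 1 cells, had 6 UMIs in 6 C1q-low members, 0 in the other members and in type 2 dendritic-like cells, and 2 in macrophages. Tlr9 had 0 UMIs in the members. Unc93b1, which carries endosomal Toll-like receptors, was at 228 CPM in the members, 71.2 CPM in type 2 dendritic-like cells and 329 CPM in macrophages. Of 20 costimulatory and checkpoint genes 6 passed the minimum against each class. Against type 2 dendritic-like cells Vsir and Lgals9 were higher and 0 lower, and against macrophages Sirpa and Lilrb4a were lower and 0 higher. In the C1q-low members Havcr2 and Btla were higher and Lilrb4a lower of 6 against type 2 dendritic-like cells. Against macrophages Cd86 and Btla were higher and Sirpa and Lilrb4a lower of 7. Over all genes 11.7% and 8.68% were called either way, and 19.7% and 23.4% with C1q-low members. Cd86 was at 84.3 CPM (49.1 to 135) in the members, 79.1 CPM in type 2 dendritic-like cells and 39.0 CPM in macrophages. Btla, an inhibitory receptor, had 11 UMIs in 10 members and was at 107 CPM (46.3 to 211) in the C1q-low ones, against 4.18 CPM in macrophages. Havcr2, the gene of TIM-3, was at 93.8 CPM (37.7 to 193) in the C1q-low members and 39.0 CPM (29.4 to 50.6) in macrophages, and was not called against macrophages. Clec12a, an inhibitory lectin for uric acid crystals, was at 223 CPM (163 to 299) in the members and 87.0 CPM (43.4 to 156) in type 2 dendritic-like cells, and level on both sides of the C1q split (228 and 220.5 CPM). Of 17 uptake receptor genes, 9 passed the minimum against type 2 dendritic-like cells with 4 higher and 0 lower, and 10 against macrophages with 0 higher and 4 lower. Over all genes, 9.01% were higher and 2.71% lower against type 2 dendritic-like cells, and 2.96% and 5.72% against macrophages. Cd36, a scavenger receptor, had 16 UMIs in 13 members and 3 UMIs in type 2 dendritic-like cells.

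Metabolic and interferon genes are read against the same shares of all genes called, 11.7% against type 2 dendritic-like cells and 8.68% against macrophages. Of 20 genes that supply acetyl-CoA or set histone acetyl marks, 3 passed the minimum against each class and 0 were called. Acly, the ATP-citrate lyase, had 8 UMIs in 7 members, 39.7 CPM (17.1 to 78.2), against 7.91 CPM in type 2 dendritic-like cells and 39.7 CPM (30.0 to 51.4) in macrophages. In the C1q-low members Hdac1, at 7 UMIs, passed 2-fold against type 2 dendritic-like cells and Acat1, at 6 UMIs, against macrophages. Of 19 glycolysis and hypoxia genes, 9 passed against type 2 dendritic-like cells with 1 higher (Tpi1), and 10 passed against macrophages with 0 called. Of 24 interferon-induced genes, 9 passed against type 2 dendritic-like cells, with Irf7 higher and Ifit3 lower, and 13 against macrophages, with Ifi205 higher and Rsad2 and Bst2 lower. Irf7 was at 307 CPM (218 to 419.8) in the C1q-high and 107 CPM (46.3 to 211) in the C1q-low members.

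Cell cycle transcripts were frequent. Of the 57 members of replicate 1, 36 had 3 or more UMIs over 43 S phase and G2/M genes, 63.2% (49.3 to 75.6), with a median of 6 such UMIs. Depth differs between cells, so each was also thinned to 1000 UMIs, which left out 7 members. Then 22 of 50 members reached 3 cycle UMIs, 44.0% (30.0 to 58.7). The thinned share was 21.4% (10.3 to 36.8) in type 2 dendritic-like cells (9 of 42), 26.6% (22.9 to 30.6) in macrophages, 25.7% (17.6 to 35.4) in CD3-positive barcodes and 37.2% (33.2 to 41.4) in Ptprc-negative barcodes. It was 45.8% (25.6 to 67.2) in the C1q-low members and 42.3% (23.4 to 63.1) in the others. Unthinned, these shares were 45.2% and 84.6%, with 34.5% in type 2 dendritic-like cells and 42.5% in macrophages, so the 2 sets of members were level only at equal depth. The members' interval overlapped that of type 2 dendritic-like cells and, between 30.0% and 30.6%, that of macrophages. With 2 cycle UMIs as the limit 30 of 50 thinned members reached it (45.2% to 73.6%), and the share was 26.2% (13.9 to 42.0) in type 2 dendritic-like cells and 40.8% (36.6 to 45.2) in macrophages, so whether the intervals overlapped depended on the limit chosen.

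Several single cycle genes were higher than in type 2 dendritic-like cells. Mki67, a marker of dividing cells, had 19 UMIs in 10 members, 94.2 CPM (56.7 to 147), against 15.8 CPM (1.91 to 57.1). Top2a, the topoisomerase of replicating cells, was at 134 CPM (88.3 to 195) in the members, 47.4 CPM in type 2 dendritic-like cells and 86.3 CPM (71.8 to 103) in macrophages. Birc5, survivin, was at 154 CPM (104 to 218), 31.6 CPM and 77.3 CPM. Hmgb2 was at 858 CPM (735 to 996) in the members and 393 CPM (361 to 426) in macrophages. Of 22 G2/M genes 8 passed against type 2 dendritic-like cells with 5 higher and 0 lower, and 9 passed against macrophages with 1 higher and 0 lower, where 9.01% and 2.96% of all genes were higher. In the C1q-low members 6 of 8 and 2 of 9 were higher and 0 lower, where 10.8% and 8.36% of all genes were higher. Top2a and Birc5 were among those 6 and Mki67 was not. The edgeR fit over both libraries called 0 of 4 G2/M genes against type 2 dendritic-like cells and 0 of 16 against macrophages. In replicate 2, 5 of 10 members had 3 or more cycle UMIs, and 3 of 8 after thinning, 37.5% (8.52 to 75.5). The thinned share there was 35.7% (12.8 to 64.9) in type 2 dendritic-like cells (5 of 14) and 27.7% (22.1 to 33.8) in macrophages. Of Ptprc-negative barcodes 428 of 856 reached 3. With 2 cycle UMIs as the limit, 4 of 8 members and 8 of 14 type 2 dendritic-like cells reached it. The higher share than in type 2 dendritic-like cells was thus not seen in replicate 2, where 8 members give a wide interval.

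**Figure D4:**
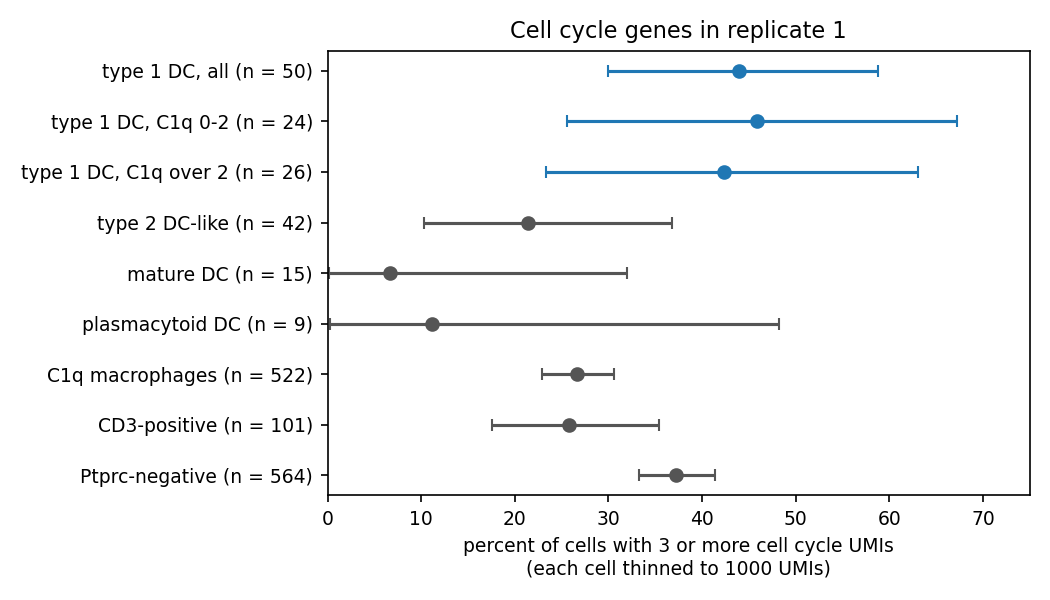
Share of barcodes with 3 or more UMIs over 43 cell cycle genes in replicate 1, in percent, by cell class, each barcode thinned to 1000 UMIs, with Clopper-Pearson 95% intervals as lines and n the barcodes deep enough to thin. Type 1 dendritic cells are at 44.0%, type 2 dendritic-like cells at 21.4% and macrophages at 26.6%.

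Mature dendritic cells, which had a Ccr7 UMI and 3 or more over 6 maturation genes, numbered 16 in replicate 1 and are given side by side only, since Ccr7 barred a barcode from the members. Against them 197 of 1954 genes were higher in the members (10.1%) and 283 lower (14.5%), 24.6% either way. Their summed macrophage list stood at 27382 CPM (25893 to 28933), above the C1q-high members (19451 CPM) and the C1q-low ones (951 CPM), and its part in these values was not tested. Fscn1 and Ccl22 belong to the gate, and stood at 9.92 and 14.9 CPM in the members and 303 and 411 CPM in mature dendritic cells. Of the 17 maturation genes outside the gate, 12 passed the minimum and all 12 were lower in the members. A gene that passes through the mature class alone must be lower, so this count describes the list and does not support it. Samsn1 was at 49.6 CPM (23.8 to 91.2) in the members and 541 CPM (350.2 to 799) in mature dendritic cells, and Relb, an NF-kappaB subunit, at 19.8 CPM (5.41 to 50.8) and 173 CPM (74.8 to 341). Ppt1 was at 531 CPM in the members and 64.9 CPM (13.4 to 190) in mature dendritic cells, Tlr3 at 144 and 21.6 CPM, and Irf8, a rule gene, at 848 and 303 CPM.

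The 10 members of replicate 2 carried a median of 1989 UMIs and a C1q sum of 10568 CPM (9309 to 11951), against 3284 CPM in the members of replicate 1. Their 23 type 1 genes outside the rule, Cst3 left out, summed to 2663 CPM (2051 to 3400), against 1093 CPM (761 to 1520) in type 2 dendritic-like cells and 1372 CPM (1271 to 1479) in macrophages of the library. In replicate 1 the same sums were 3130 CPM, 1494 CPM and 785 CPM, so the members were the highest of these 3 classes in both libraries. Mature dendritic cells of replicate 2 reached 1995 CPM (1405 to 2750), an interval that overlaps that of the members. Cadm1 had 8 UMIs in 7 of the 10 members, 333 CPM (144 to 656), against 207 CPM (169 to 251) in macrophages and 0 UMIs in type 2 dendritic-like cells. Ppt1 was at 541 CPM (288 to 925) against 156 CPM (50.7 to 364) and 304 CPM (257 to 356). Txndc16 had 3 UMIs, 125 CPM, Batf3 had 1 and Tlr3 had 0, and a count of 0 allows up to 125 CPM there by the floor of 3 counts. Lyz2 had 18663 UMIs over all barcodes of replicate 1 and 49 over those of replicate 2, with 512 and 0 UMIs in the members.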

How the data were processed

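Raw UMI counts per gene and barcode were deposited, whole numbers that are not normalised; the deposited feature and barcode lists hold names only. Per the submitters' processing notes, reads were handled with Cell Ranger (6.0.1) and Seurat (4.0.1), and mm10 is the build named there. Members, gene lists and gates were chosen with earlier results of these data known. Counts were summed per class and library and put on a CPM scale (Python 3.11.15, numpy 2.4.6, scipy 1.17.1); a pseudocount of 20 CPM and a mean of 50 CPM were used. With 10 members in replicate 2, fewer than the 20 set as the minimum, the main comparison has no count model. edgeR 4.0.16 in R 4.3.3 gave TMM factors for a scaling alternative and, added after seeing the data, a quasi-likelihood fit of the 4 class sums with the library as a block, on genes kept by filterByExpr and with Benjamini-Hochberg adjustment over all genes tested. The log2 intervals combine the exact Poisson limits of both levels. Barcodes that no gate took (724 and 1117) stayed unassigned. A gene of the macrophage gate and a gene of the acetylation list are not reported here by name. Scrublet (scanpy 1.11.5) ran per library. Genes were named by rank: the 15 highest and 15 lowest differences against type 2 dendritic-like cells, and 15 and 10 against macrophages, without rule and gate genes, mitochondrial and ribosomal genes, Xist and Y-linked genes; listed genes were named by UMIs or size of difference. Positions are GENCODE M21 and sequences RefSeq. The comparison and edgeR code was checked on simulated counts.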

Additional observations from a re-analysis of the deposited data

How the results depend on the processing

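The paired fit over both libraries, with the replicate block and chosen after seeing the data, called 16 genes higher and 10 lower against type 2 dendritic-like cells and 34 and 22 against macrophages. These are counts at an adjusted p of edgeR, not of 2-fold differences, and no named gene that it tested changed sign. The fit reuses the replicate 1 sums that picked the named genes. With 1 sample per class, depth limits genes of few UMIs: 1 UMI is worth 4.96 CPM in the members of replicate 1 and 41.6 CPM in those of replicate 2. The share of members was 0.352% to 2.39% with 1 library left out, and the SD over libraries exceeds the mean, so no stability can be read from it. TMM scaling moved all genes by -0.03 against type 2 dendritic-like cells and by -0.10 against macrophages.

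Against type 2 dendritic-like cells, where 156 genes were higher and 47 lower, the counts were 74 and 28 with a pseudocount of 50 CPM, 548 and 239 with no filter, 59 and 22 at a mean of 100 CPM and 403 and 170 after thinning to 1000 UMIs. Lower genes numbered 72 with a pseudocount of 5 CPM and 147 in C1q-low members, and higher genes 48 when type 2 dendritic-like cells could hold any C1q UMIs. Without replicate 1 the counts were 722 and 320, from 10 members. Against macrophages, where 56 were higher and 108 lower, they were 150 and 269 in C1q-low members, 35 and 67 with 50 CPM, 140 and 222 with no filter, 22 and 69 at 100 CPM, 191 and 185 thinned and 555 and 174 without replicate 1, and 87 were higher with 5 CPM. Against mature dendritic cells, C1q-low members, an alternative chosen after seeing the data, gave 265 higher and 413 lower. The cycling share was 45.2% in C1q-low members and 44.0% thinned.

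In C1q-low members the difference from type 2 dendritic-like cells became -0.48 for Ccl12 and Ccl8, -0.63 for Ms4a7 and -1.47 for Apoe, and that from macrophages -0.90 for Retnla. With any C1q UMIs allowed in type 2 dendritic-like cells it became -0.60 for Ccl12, -0.47 for Ms4a7, -0.49 for Apoe and -0.33 for Stab1. Without replicate 1 it became -3.75 for Pf4, -2.04 for Ctla2a, -1.52 for Znrd1, -1.36 for Rab32, -0.42 for Sept6, 0.27 for Clec10a, 0.81 for Tmem176a, 0.35 for Cript and 1.71 for Tmem176b, and against macrophages -0.26 for Tlr3 and Ccl17, 0.19 for Tmem176a and 0.61 for Tmem176b, each on 6 or fewer UMIs in the members. The cause of these changes was not tested.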
